A study of Mus musculus with 2 samples.

Results

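The 6 genes described here encode the constant regions of the antibody molecules that young B cells carry on their surface: Ighm (the mu heavy chain of IgM), Ighd (the delta heavy chain of IgD), Igkc (the kappa light chain) and Iglc1, Iglc2 and Iglc3 (the lambda light chains). They were taken as a fixed list of gene symbols, and all 6 of 6 were found among the 32285 genes of both count tables, which also hold 392 immunoglobulin segments of every kind. The list was chosen by its measured counts in these cells: high counts in the B cell groups marked by Fcer2a or by Zbtb32 and Fcrl5, and a low Ighm signal in macrophages. The levels below are therefore a description and carry no test.

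The study sorted live CD45+ leukocytes from mouse hearts after myocardial infarction (MI) and profiled them by 5′ single-cell RNA sequencing, in which reads begin at the capped end of a transcript. MI was made at postnatal day 2, and the hearts were taken 7 days later, at 9 days of age, from wild-type pups (WT) and from pups lacking the hyaluronan receptor Lyve1 (Lyve1 KO, a germline deletion). Each genotype is 1 library made from 5 pooled hearts, ventricles only, and the strain of the WT pups is not given in the sources used here. With 1 library per genotype there is no replicate: intervals below are 95% intervals for counting error only, and no difference between genotypes could be tested. The libraries held 67968938 (WT) and 61555917 (Lyve1 KO) unique molecular identifiers (UMIs, counted molecules), of which 4187 and 3391 cells with a median of 11106 and 12856 UMIs were used. They shared 9 cell barcodes, 3 of them among the cells used, and Lyve1 itself stood at 247 counts per 1000000 UMIs (CPM) in WT and 13.1 CPM in Lyve1 KO.

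As background, a B cell rearranges variable segments at one heavy chain locus and at a kappa or a lambda light chain locus, and joins them by splicing to a constant region. IgM and IgD come from the same primary heavy chain transcript by alternative splicing, so a mature naive B cell makes both. Follicular B cells carry much IgD and the low-affinity IgE receptor CD23 (Fcer2a), while B-1 cells, an early-life lineage of the body cavities, carry much IgM and little IgD. Light chain use is largely exclusive: most mouse B cells make kappa, and a minority make lambda. Unrearranged constant loci can also be transcribed, which yields RNA without a variable segment.

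In the GRCm38 build with GENCODE M21 genes, Ighm lies at chr12:113418558-113422730 and Ighd just downstream at chr12:113406604-113416324, both on the minus strand. Igkc lies at chr6:70726435-70726966 on the plus strand. The lambda genes lie on the minus strand at chr16:19061618-19062071 (Iglc1), chr16:19065230-19065681 (Iglc3) and chr16:19198396-19200351 (Iglc2). All 6 are annotated as immunoglobulin constant genes, and Igkc, Iglc1 and Iglc3 each have a single exon.

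The start of the coding sequence of the lambda genes is shown because Iglc2 and Iglc3 differ at few bases of it. The sequences are from the GENCODE M21 transcripts on GRCm38, minus strand, at chr16:19198734-19198853 (Iglc2), chr16:19065563-19065681 (Iglc3) and chr16:19061953-19062071 (Iglc1), and capitals mark bases that differ from Iglc2.
Iglc2: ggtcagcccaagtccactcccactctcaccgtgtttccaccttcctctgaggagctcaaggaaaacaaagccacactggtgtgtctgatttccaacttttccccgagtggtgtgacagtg
Iglc3: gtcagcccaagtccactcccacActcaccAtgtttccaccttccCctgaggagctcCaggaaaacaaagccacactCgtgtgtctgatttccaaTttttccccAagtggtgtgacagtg
Iglc1: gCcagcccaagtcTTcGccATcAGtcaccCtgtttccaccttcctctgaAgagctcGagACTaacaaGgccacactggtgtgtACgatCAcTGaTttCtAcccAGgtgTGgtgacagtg
Iglc3 differed from Iglc2 at 7 bases of this stretch and Iglc1 at 28. Over the whole coding sequence Iglc2 and Iglc3 were identical at 303 of 315 aligned positions (96.2%), with an identical run of 79 bases, whereas Iglc1 matched Iglc2 at 72.3%. Reads inside such a run fit both genes, so the split of UMIs between Iglc2 and Iglc3 is uncertain, while Iglc1 can be told apart from them. Untranslated parts of the transcripts were not compared, and how many reads fit both genes was not examined.

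Clustering without the immunoglobulin genes gave 3 groups of B cells. The Fcer2a group (209 WT and 268 Lyve1 KO cells) was led by Vpreb3, Fcer2a and Cd79a. The Zbtb32/Fcrl5 group (122 and 172 cells) was led by Ms4a1, Zbtb32 and Cd79a, with Fcrl5 and Sox5 behind them. A low-depth group (96 and 55 cells) was led by Gm26917, Ebf1 and Tmem163, and its median was 3214 and 4746 UMIs per cell, against 9953 and 11000.5 in the Fcer2a group and 24046 and 27645.5 in the Zbtb32/Fcrl5 group. All 8 markers listed for follicular-type B cells were lower in the Zbtb32/Fcrl5 group than in the Fcer2a group in both libraries. Of 11 markers listed for B-1-type B cells, 10 were higher there in both. The exception was Bhlhe41, at 43.1 against 32.2 CPM in WT and 49.1 against 76.3 CPM in Lyve1 KO. These lists hold the genes that name the groups. The 7 markers listed for precursor or immature B cells summed to 126 and 63.4 CPM in the Fcer2a group, against 7.07 and 9.04 CPM in the Zbtb32/Fcrl5 group. Most of this was Cd93 in Lyve1 KO, at 47.1 CPM, and Cd93 was at 60.5 CPM in WT. Fcer2a itself had a UMI in 50.5% of the cells of its group. The 12 listed macrophage markers summed to 30.5 to 112 CPM in the Fcer2a and Zbtb32/Fcrl5 groups, against 21600 and 18915 CPM in macrophage-like cells.

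The mu chain gene Ighm was found in nearly every B cell of the first 2 groups. It reached 1632 CPM (1579 to 1686) in the WT Fcer2a group and 1674 CPM (1629 to 1721) in the Lyve1 KO Fcer2a group. The Zbtb32/Fcrl5 group reached 1837 CPM (1793 to 1882) in WT and 1705 CPM (1671 to 1740) in Lyve1 KO. The level relative to all RNA thus lay in a narrow band, and only the WT value of the Zbtb32/Fcrl5 group stood above the other 3 by more than counting error. Per cell, the median was 16 and 18 Ighm UMIs in the Fcer2a group (highest 61 and 74) and 44 and 47 in the Zbtb32/Fcrl5 group (highest 215 and 304), in cells of greater depth. The low-depth group held 690 CPM (610 to 777) and 676 CPM (587 to 775), below both other groups.

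The delta chain gene Ighd separated the groups. It stood at 331 CPM (307 to 356) and 360 CPM (339 to 382) in the WT and Lyve1 KO Fcer2a groups, and at 104 CPM (93.9 to 116) and 81.3 CPM (74.0 to 89.2) in the Zbtb32/Fcrl5 groups. The low-depth group held 387 CPM (328 to 453) and 406 CPM (337 to 484), whose intervals overlap those of the Fcer2a group of the same library. Ighd was thus lowest among B cells in the Zbtb32/Fcrl5 group of either library. At an equal depth of 6000 UMIs per cell, 72.0% (126 of 175) and 77.0% (184 of 239) of Fcer2a cells kept an Ighd UMI, against 39.7% (48 of 121) and 37.6% (64 of 170) of Zbtb32/Fcrl5 cells. The unthinned shares were 82.3% and 83.6% against 72.1% and 73.8%.

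The kappa gene Igkc stood at 461 CPM (433 to 490) and 537 CPM (512 to 564) in the WT and Lyve1 KO Fcer2a groups. The Zbtb32/Fcrl5 group held 379 CPM (359 to 400) and 398 CPM (382 to 415). Both libraries therefore had the lower Igkc level in the Zbtb32/Fcrl5 group, by 0.27 and 0.42 on the log2 scale. The low-depth group held 94.2 and 82.5 CPM.

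Among the lambda genes, Iglc1 stood at 465 and 530 CPM in the Fcer2a group and at 389 and 341 CPM in the Zbtb32/Fcrl5 group, in WT and Lyve1 KO. Iglc3 followed the same order, with 681 and 749 CPM in the Fcer2a group and 480 and 458 CPM in the Zbtb32/Fcrl5 group. Iglc2 did not: it stood at 720 CPM (685 to 756) and 854 CPM (821 to 887) in the Fcer2a groups but at 768 CPM (739 to 797) in the WT Zbtb32/Fcrl5 group and 458 CPM (440 to 476) in the Lyve1 KO one. The 3 lambda genes were at 30.5 to 117 CPM in the WT low-depth group and at 39.6 to 152 CPM in the Lyve1 KO one.

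**Figure D1:**
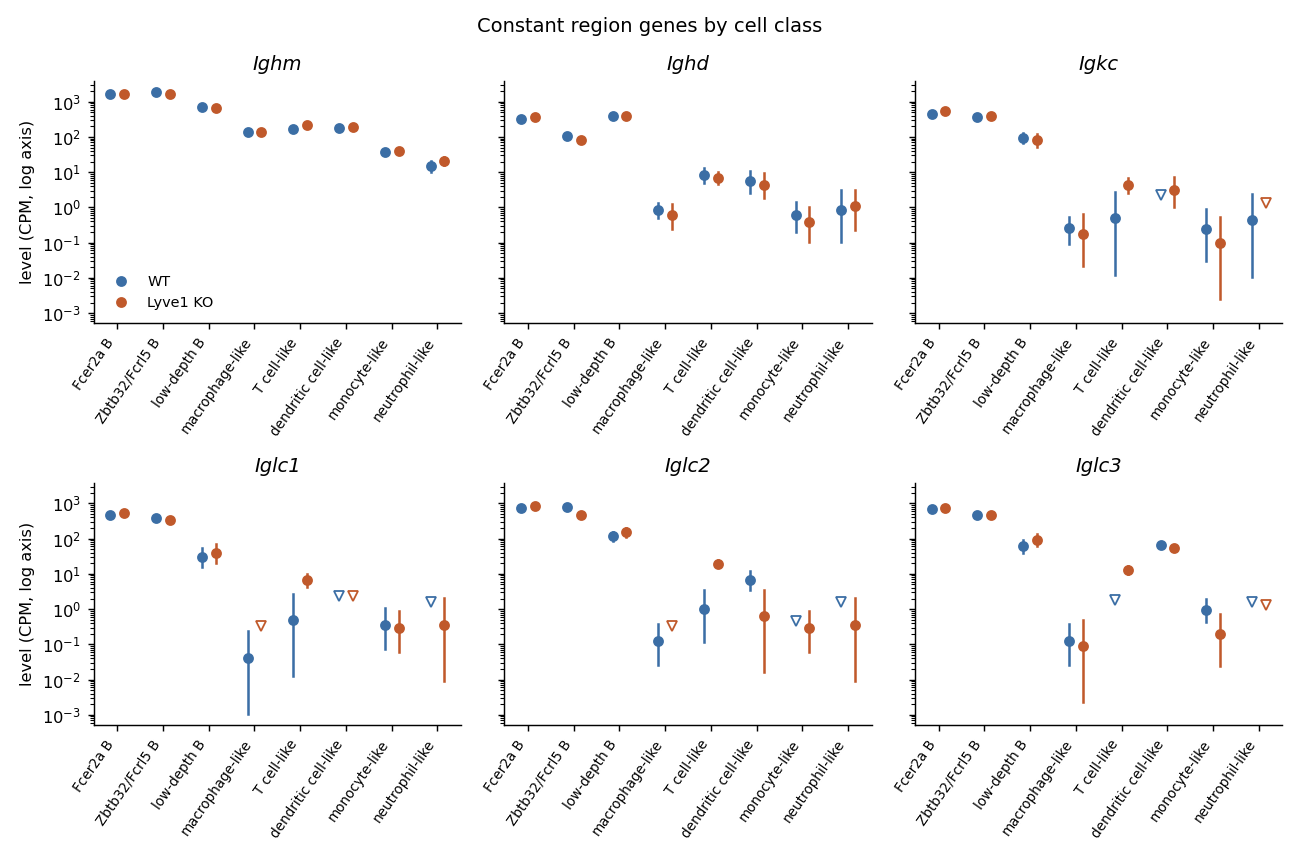
Level of each of the 6 constant region genes (CPM, log axis) in 8 cell classes of the WT (blue) and Lyve1 KO (orange) library, with 95% Poisson intervals as bars; an open triangle is the upper bound where no UMI was counted. All 6 genes are high in the Fcer2a and Zbtb32/Fcrl5 B groups, and outside B cells Ighm alone stays above 10 CPM in every class shown.

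Setting the Zbtb32/Fcrl5 group over the Fcer2a group within a library, 1 of 6 members passed a log2 ratio of 1 in size in WT and 1 of 6 in Lyve1 KO, and it was Ighd in both, at log2 ratios of -1.58 and -2.02 (10 CPM added to each level). Of all genes with at least 100 UMIs in both groups together, 8.03% (WT) and 8.56% (Lyve1 KO) passed that size. The median ratio of the 6 members was -0.26 and -0.66, against -0.10 and -0.07 over all genes tested. The groups are clusters of these same cells, and the immunoglobulin genes were kept out of the clustering.

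Because Ighm and Ighd share a transcript, the balance between them was taken as the Ighd share of their summed UMIs, which counts molecules without correction for length. It was 16.9% (722 of 4284 UMIs, 15.7 to 18.01) in the WT Fcer2a group and 17.7% (1109 of 6262, 16.8 to 18.7) in the Lyve1 KO Fcer2a group. In the Zbtb32/Fcrl5 group it was 5.37% (369 of 6869, 4.85 to 5.93) and 4.55% (450 of 9886, 4.15 to 4.98). The Fcer2a group was higher by 11.5 percentage points in WT and 13.2 points in Lyve1 KO, and the genotypes lay close together within each group. In the low-depth group the share was 35.9% (31.4 to 40.7) and 37.5% (32.2 to 43.0). Cells with UMIs of both genes made up 82.3% and 83.2% of the Fcer2a group and 72.1% and 73.8% of the Zbtb32/Fcrl5 group.

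The pooled hearts cannot be separated, but cells could be taken as male or female from Xist and Y-linked genes, and the order of the groups was the same in each. In WT the Ighd share was 16.4% in male and 19.3% in female Fcer2a cells, against 4.72% and 7.86% in Zbtb32/Fcrl5 cells. In Lyve1 KO it was 19.0% in male and 15.5% in female Fcer2a cells, against 5.00% and 4.204%. Male cells were thus below female cells in WT and above them in Lyve1 KO, in both groups, but not always by more than counting error. The intervals overlapped in the WT Fcer2a group (15.1 to 17.7 and 16.8 to 21.9) and the Lyve1 KO Zbtb32/Fcrl5 group (4.45 to 5.59 and 3.56 to 4.93). The WT female Zbtb32/Fcrl5 value rests on 18 cells.

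**Figure D2:**
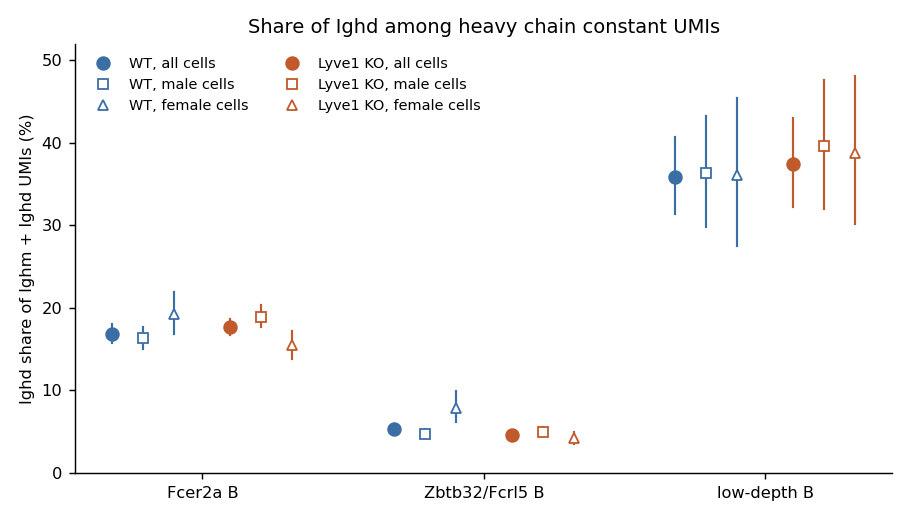
Ighd share (percent) of Ighm plus Ighd UMIs in the 3 B cell groups, for all cells (filled) and for male and female cells (open) of the WT (blue) and Lyve1 KO (orange) library; bars are 95% Clopper-Pearson intervals. The Zbtb32/Fcrl5 group lies below 8% in every set, the Fcer2a group between 15.5% and 19.3%, and the low-depth group between 35.9% and 39.6%.

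One WT cell stood far from the others. This cell, left out as a likely doublet by its score, carried 1859 Ighm UMIs and 0 Ighd UMIs, with 424 of Igkc, 80 of Iglc1, 1562 of Jchain (which joins IgM into its secreted polymer), 110 of Xbp1 (a factor of antibody-secreting cells) and 3 of Sdc1. The next highest Fcer2a cell of that library had 61 Ighm UMIs. With doublets kept, this cell and others left out with it were clustered again, and it fell into the WT Fcer2a group, whose Ighd share was then 11.7% and whose Ighm level was 2390 CPM. The Lyve1 KO over WT log2 ratios of Ighm and Igkc in the Fcer2a group, given further on as 0.04 and 0.22, then turned to -0.51 and -0.21.

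A finer clustering set 13 WT and 31 Lyve1 KO cells of the Zbtb32/Fcrl5 group apart, led by the histone gene Hist1h4d and Sox5 and with 1274 and 1390 CPM of the division marker Mki67. Their Ighd share was 2.62% (1.78 to 3.69) and 3.08% (2.43 to 3.83), below the 5.95% (5.35 to 6.59) and 5.05% (4.56 to 5.58) of the remaining Zbtb32/Fcrl5 cells. Ighm was at 1701 and 1723 CPM in the dividing cells, against 1870 and 1699 CPM in the others. This split was chosen after the data were seen.

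UMIs of the constant genes of switched heavy chain classes were nearly absent. Ighg3, the IgG3 constant gene, was the exception: the Zbtb32/Fcrl5 group held 72 Ighg3 UMIs in 32 WT cells and 136 UMIs in 47 Lyve1 KO cells, and the Fcer2a group held 1 UMI and 0. The low-depth group held 4 and 7 UMIs, or 10.2 and 23.1 CPM, against 20.4 and 24.6 CPM in the Zbtb32/Fcrl5 group. Whether these UMIs come from switched or from unrearranged loci was not tested. Igha (IgA) gave 4 and 17 UMIs in the Fcer2a group and 6 and 19 in the Zbtb32/Fcrl5 group. Ighg1 gave at most 1 UMI in any B cell group, Ighg2b gave 1 UMI in the Lyve1 KO Zbtb32/Fcrl5 group and none elsewhere in B cells, and Ighg2c and Ighe gave none, with upper bounds of 1.69 CPM in the WT Fcer2a group and 0.667 CPM in the Lyve1 KO Zbtb32/Fcrl5 group. Jchain gave 97 and 85 UMIs in the Zbtb32/Fcrl5 group, in 25 and 23 cells, against 6 and 7 in the Fcer2a group. The secreted and membrane forms of Ighm cannot be told apart in gene counts.

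For the light chains, constant gene counts alone did not split B cells into kappa and lambda users. Of the light chain constant UMIs, the lambda genes made up 80.2% (79.1 to 81.3) and 79.9% (79.0 to 80.7) in the Fcer2a group and 81.2% (80.3 to 82.1) and 75.9% (75.1 to 76.8) in the Zbtb32/Fcrl5 group. Of cells with at least 5 such UMIs, those with a lambda fraction under 0.2 numbered 1 of 192 and 2 of 255 in the Fcer2a group and 0 of 121 and 1 of 170 in the Zbtb32/Fcrl5 group. Cells with a fraction between 0.2 and 0.8, here called both, made up 46.4% and 43.1% of the Fcer2a cells and 41.3% and 60.6% of the Zbtb32/Fcrl5 cells. All other cells exceeded 0.8.

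The variable segments of the same cells gave another picture. In the Fcer2a group Igkv segments held 15209 (WT) and 22432 (Lyve1 KO) UMIs and Iglv segments 2370 and 2365, so that Igkv UMIs outnumbered Igkc UMIs (1006 and 1654) while Iglv UMIs were outnumbered by lambda constant UMIs (4074 and 6564). By the same limits applied to variable segments, an analysis added after the data were seen, kappa cells numbered 172 of 202 (85.1%, 79.5 to 89.7) and 231 of 260 (88.8%, 84.4 to 92.4) in the Fcer2a group. They numbered 99 of 121 (81.8%, 73.8 to 88.2) and 153 of 171 (89.5%, 83.9 to 93.6) in the Zbtb32/Fcrl5 group. Lambda cells numbered 18, 19, 16 and 9 in the same order, and their shares, from 5.26% to 13.2%, had overlapping intervals.

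Igkc was found mainly in kappa cells, and the lambda constant genes were found in most cells of either kind. In lambda cells Igkc was found in 5 of 18 WT and 7 of 19 Lyve1 KO Fcer2a cells and in 4 of 16 and 1 of 9 Zbtb32/Fcrl5 cells, with 7, 12, 23 and 4 UMIs in all. In kappa cells it was found in 91.8% to 99.0%. Iglc3, by contrast, was found in 95.3% and 97.4% of the kappa cells of the Fcer2a group and in 100% and 96.1% of those of the Zbtb32/Fcrl5 group. Iglc1 was found in 84.3% to 96.7% of kappa cells, and Iglc2 in 61.6% to 88.9%. Those 172 WT Fcer2a kappa cells held 1320 Iglc3, 1239 Iglc2 and 842 Iglc1 UMIs beside only 99 Iglv UMIs.

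The levels of the lambda genes did not go the same way between lambda and kappa cells. Iglc1, which can be told apart by sequence, had the higher value in lambda cells in all 4 sets, but the intervals lay apart only in the WT Zbtb32/Fcrl5 group, at 508 CPM (454 to 568) against 355 CPM (333 to 378). The other Iglc1 values were 524 against 456 CPM and 596 against 526 CPM in the WT and Lyve1 KO Fcer2a groups, and 381 against 330 CPM in the Lyve1 KO Zbtb32/Fcrl5 group. Iglc3 was no higher in lambda cells than in kappa cells in any of the 4 sets. In the WT Fcer2a group it was 490 CPM (393 to 605) in lambda and 714 CPM (676 to 754) in kappa cells, and in the Lyve1 KO Fcer2a group 406 CPM (321 to 506) and 780 CPM (747 to 814). In the Zbtb32/Fcrl5 group it was 329 CPM (285 to 377) against 520 CPM (494 to 548) in WT and 401 CPM (337 to 474) against 473 CPM (454 to 493) in Lyve1 KO, where the intervals overlap. Iglc2 went the other way in 3 of the 4 sets: 1433 CPM (1270 to 1611) in lambda against 792 CPM (759 to 827) in kappa cells in the Lyve1 KO Fcer2a group, 924 against 670 CPM in the WT Fcer2a group, and 587 against 447 CPM in the Lyve1 KO Zbtb32/Fcrl5 group. In the WT Zbtb32/Fcrl5 group Iglc2 was at 798 CPM (729 to 872) and 786 CPM (753 to 819). Over both groups and libraries, the 42 lambda cells with mainly Iglv1 carried 498 Iglc1, 852 Iglc2 and 372 Iglc3 UMIs, and the 20 with mainly Iglv2 or Iglv3 carried 153, 281 and 133.

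**Figure D3:**
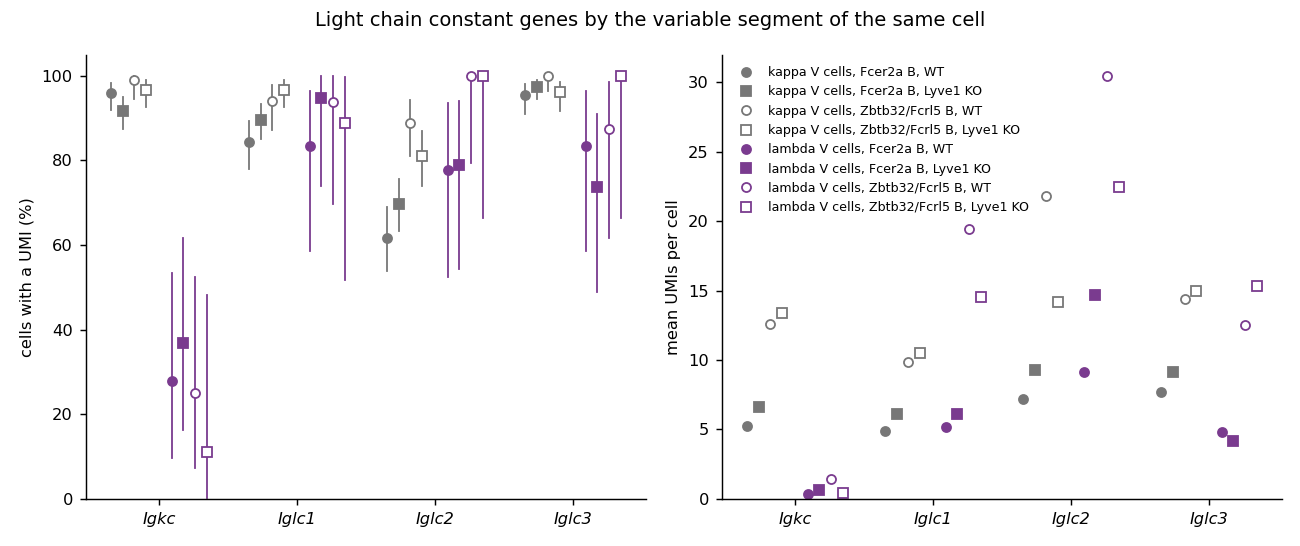
Light chain constant genes in cells whose variable segment UMIs are kappa (grey) or lambda (purple), in the Fcer2a (filled) and Zbtb32/Fcrl5 (open) groups of the WT (circles) and Lyve1 KO (squares) library: left, the percent of cells with a UMI, with 95% Clopper-Pearson bars, and right, the mean UMIs per cell. Igkc falls from over 91% of kappa cells to under 37% of lambda cells, while the lambda genes are found in most cells of either kind.

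Many cells with Iglc3 had no Iglc2. Among Fcer2a cells with at least 5 Iglc3 UMIs, 42 of 130 WT cells (32.3%, 24.4 to 41.1) and 50 of 180 Lyve1 KO cells (27.8%, 21.4 to 34.9) had no Iglc2 UMI, while other such cells reached 48 and 85. In the Zbtb32/Fcrl5 group it was missing in 10 of 106 (9.43%, 4.62 to 16.7) and 25 of 153 (16.3%, 10.9 to 23.2). In Lyve1 KO Zbtb32/Fcrl5 cells, Iglc2 was missing in 9 of 86 male and 15 of 56 female cells. Whether single animals of the pools account for these cells was not tested.

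Setting Lyve1 KO over WT asked whether loss of Lyve1 goes with a shift in these genes. In the Fcer2a group 0 of 6 members passed a log2 ratio of 1 in size, against 0.927% of all genes tested, and the members lay between 0.04 (Ighm) and 0.24 (Iglc2). In the Zbtb32/Fcrl5 group 0 of 6 passed, against 1.23% of all genes, and they lay between -0.73 (Iglc2) and 0.07 (Igkc). The median of the members was 0.16 and -0.14, beside -0.02 and 0.00 over all genes. Iglc2 was the member farthest from 0 in both groups, with 1571 UMIs in WT and 2628 in Lyve1 KO Fcer2a cells, and 2717 and 2535 in Zbtb32/Fcrl5 cells. Ighd came next in the Zbtb32/Fcrl5 group, at -0.32 (-0.50 to -0.14), but its sign was not kept: it was 0.06 in male cells, and 0.06 with groups set by UMIs of Fcer2a, Zbtb32 and Fcrl5 in each cell.

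Iglc2 lay apart in the sexes. In the Zbtb32/Fcrl5 group Iglc2 was at 747 (WT) and 543 CPM (Lyve1 KO) in male cells and at 945 and 347 CPM in female cells. Taken over female cells alone, 2 of 6 members passed the limit in that group, Iglc2 at -1.42 and Ighd at -1.21, from 18 WT and 66 Lyve1 KO cells, where 5.66% of all genes passed it. With Iglc2 and Iglc3 summed, since their split is uncertain, the ratio over all cells was -0.44. How much of this comes from differences between the pooled animals cannot be told apart from the genotype.

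**Figure D4:**
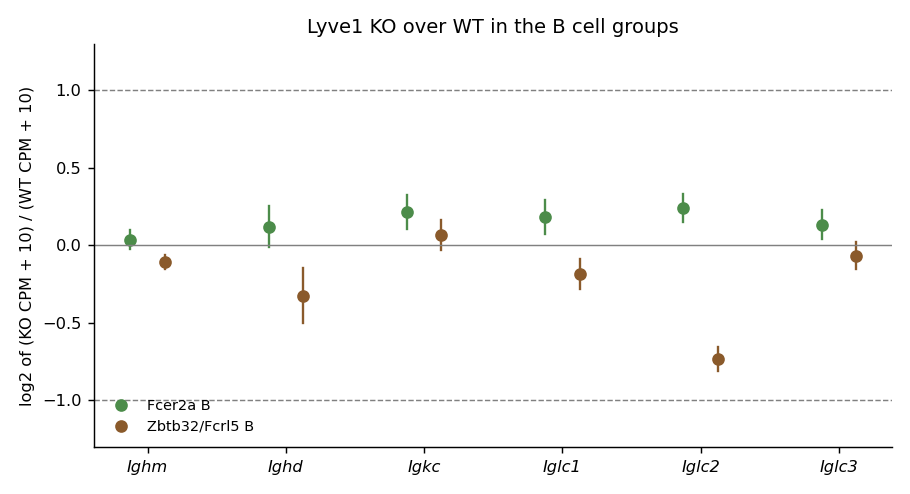
Log2 ratio of Lyve1 KO over WT (10 CPM added to each level) for the 6 genes in the Fcer2a (green) and Zbtb32/Fcrl5 (brown) groups, with bars for counting error and dashed lines at the limit of 1. None of the 12 points passes the limit, and Iglc2 in the Zbtb32/Fcrl5 group, at -0.73, lies closest to it.

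The genes that act with these constant regions were read from lists and are given by count, beside all 6662 genes tested between the B cell groups in both libraries, of which 206 were higher and 181 lower in the Zbtb32/Fcrl5 group by the same limit in both. Of 24 genes of the B cell receptor complex and its signaling, 0 were higher and 1 was lower, Cd72 (an inhibitory coreceptor); the median ratio of the 24 was -0.47 and -0.41, against -0.10 and -0.07 over all genes. Cd72 was at 109 and 135 CPM in the Fcer2a group against 17.8 and 30.2 CPM. Of 11 transcription factors of immunoglobulin genes, 0 were higher and 4 were lower. These were Irf8 (log2 ratios of -1.84 and -2.06), Foxo1 (-1.78 and -1.53), Ebf1 (-1.24 and -1.22) and Ikzf3 (-1.02 and -1.07). The median ratio of these factors was -0.88 and -0.78.

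Of 9 genes of heavy chain RNA processing, switching and secretion, 4 could be compared and 1 was lower: Zfp318, a nuclear factor required for IgD expression, stood at 95.7 and 89.3 CPM in the Fcer2a group and at 20.4 and 20.2 CPM in the Zbtb32/Fcrl5 group. It thus lay on the same side as Ighd in both libraries. Of 7 surrogate light chain and recombination genes 1 could be compared, Vpreb3, at 370 and 446 against 41.6 and 56.9 CPM. Igll1, which stands in for a light chain in precursor B cells, had 38 UMIs in 3 cells of the WT Fcer2a group and 0 in the Lyve1 KO one, and 0 and 2 UMIs in the Zbtb32/Fcrl5 group. Of 11 receptors that bind antibodies 3 could be compared and 1 was lower, Fcer2a, which names the group. Between genotypes, 0 tested genes of these lists passed the limit in either B cell group. Of all genes tested, 0.927% (Fcer2a group) and 1.23% (Zbtb32/Fcrl5 group) passed it. With at most 24 genes tested in a list, a count of 0 lies near that share.

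Outside B cells, Ighm was found in macrophage-like cells, while the other 5 genes were all but missing there. In 915 WT and 372 Lyve1 KO macrophage-like cells Ighm had 3362 and 1501 UMIs, or 142 CPM (137 to 147) and 134 CPM (127 to 141). The other members had 20 and 7 UMIs (Ighd), 6 and 2 (Igkc), 1 and 0 (Iglc1), 3 and 0 (Iglc2), and 3 and 1 (Iglc3). Of the 6 members, 1 (Ighm) had the 100 UMIs needed for a ratio there, and its Lyve1 KO over WT log2 ratio was -0.08, so that 0 passed the limit of 1, against 0.596% of all genes. This ratio is over clusters in unequal shares: the cluster led by Saa3, which had little Ighm, made up 59 of 915 WT and 60 of 372 Lyve1 KO cells. In the cluster led by Fcrls the Lyve1 KO value was higher, at 205 CPM (193 to 217) against 180 CPM (173 to 187). In the clusters led by Cdc20 and Hist1h2ae the intervals overlapped, at 138 (120 to 158) against 112 CPM (103 to 122) and 142 (113 to 177) against 134 CPM (117 to 153). The Lyve1 KO Hist1h2ae value rests on 17 cells.

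The UMIs that accompany Ighm differed from those in B cells. For each 100 Ighm UMIs, macrophage-like cells had 0.506 (0.295 to 0.810) heavy chain variable (Ighv) UMIs in WT and 0.600 (0.274 to 1.14) in Lyve1 KO. The Fcer2a group had 201 and 199 and the Zbtb32/Fcrl5 group 176 and 202. Igkc per 100 Ighm UMIs was 0.178 and 0.133 in macrophage-like cells, against 28.2 and 32.1 in the Fcer2a group. Cd79a, a signaling chain of the B cell receptor, was at 0.833 and 1.199, against 189 and 201 in the Fcer2a group. Its partner chain Cd79b was not missing: macrophage-like cells held 995 and 375 Cd79b UMIs, in 52.5% and 47.6% of cells. That was 42.1 and 33.5 CPM, against 1886 and 1935 CPM in the Fcer2a group and 31.9 and 33.0 CPM in monocyte-like cells. In neutrophil-like cells, with 34 and 58 Ighm UMIs in all, Ighv stood at 100 (69.3 to 140) and 72.4 (52.2 to 97.9). Ighd there was at 5.88 and 5.17, from only 2 and 3 UMIs, against 5.68 and 4.77 in the Zbtb32/Fcrl5 group. Igkc there was at 2.94 and 0, Cd79a at 2.94 and 1.72, and kappa variable (Igkv) UMIs at 14.7 and 13.8, all below both of these B cell groups. Ighm UMIs of macrophage-like cells were thus not accompanied by the variable segments, light chains or Cd79a that came with them in B cells. Cd79b was counted in macrophage-like cells, and whether in the same cells as Ighm was not tested.

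At an equal depth of 6000 UMIs per cell, 43.3% (386 of 891, 40.0 to 46.6) of WT and 46.5% (166 of 357, 41.2 to 51.8) of Lyve1 KO macrophage-like cells kept an Ighm UMI, with 24 and 15 shallower cells left out. The unthinned shares were 62.4% and 62.1%. In neutrophil-like cells, which make no antibody, 6.57% (14 of 213) and 9.54% (23 of 241) kept one, with 59 and 54 cells left out, and the unthinned shares were 8.09% and 12.2%. Their median depths were 7737 and 8158 UMIs, against 23669 and 25372 in macrophage-like cells. The macrophage-like share was not particular to that class. At the same depth 42.1% (53 of 126) and 52.9% (137 of 259) of T cell-like cells kept an Ighm UMI. So did 54.9% (28 of 51) and 52.6% (20 of 38) of dendritic-like cells, and 14.6% and 16.1% of monocyte-like cells.

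The macrophage-like clusters differed among themselves. The cluster led by Fcrls, Cd207 and Olfml3, with 656 and 252 cells, stood at 180 CPM (173 to 187) and 205 CPM (193 to 217), and 438 and 190 of its cells had an Ighm UMI. The cycling clusters, led by Cdc20 and Cenpf or by Hist1h2ae, stood between 112 and 142 CPM. The cluster led by Saa3, Marco and Prg4 was far lower, at 8.83 CPM (5.71 to 13.03) and 1.85 CPM (0.680 to 4.03), with an Ighm UMI in 4 of 59 and 3 of 60 cells although its cells were the deepest of these clusters, at 47279 and 53512 UMIs. No single cell set the level of the Fcrls cluster, whose highest cells held 28 and 26 UMIs, or 1.09% and 2.15% of the total. Clusters left unnamed are not in this class, also where macrophage was their nearest marker list. Of these, the one led by Spp1, Mmp12 and Gpnmb (236 and 221 cells) stood at 60.2 and 54.0 CPM. The one led by Gm26917, Plxna4 and Psd3 stood at 27.7 and 31.0 CPM. Those led by Hbb-bs and by Il31ra, of low depth, stood at 209 and 319 CPM and at 86.0 and 127 CPM. The Hbb-bs cluster, with 74 and 114 Ighm UMIs, was unlike macrophage-like cells in what accompanied them. Per 100 Ighm UMIs it held 204 and 147 Ighv, 309 and 271 Igkv and 100 and 145 Cd79a UMIs. The Il31ra cluster, with 46 and 13 Ighm UMIs, held 4 and 0 Ighv UMIs in all.

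Male macrophage-like cells were at 171 CPM (164 to 177) in WT and 121 CPM (112 to 130) in Lyve1 KO, and female ones at 80.3 CPM (73.9 to 87.2) and 155 CPM (144 to 167). Within the Fcrls cluster the WT male value of 209 CPM and the Lyve1 KO values of 215 (male) and 201 CPM (female) lay together, and the WT female value of 104 CPM (94.0 to 115), from 156 cells, stood apart.

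Ighm was also counted in other leukocytes. The T cell-like cluster led by Ctla4, Gzmb and Ikzf2 had the highest Ighm level outside B cells, at 368 CPM (318 to 423) and 414 CPM (372 to 460). Its Ighv UMIs per 100 Ighm UMIs were 0 and 15.5. The T cell-like cluster led by Dapl1 and Ms4a4b stood at 156 and 208 CPM, and the one led by Cd163l1 and Trdv4 at 20.1 and 43.1 CPM. In the Lyve1 KO library, 1 cell of the Cd163l1 cluster held 26 of its 34 Ighm UMIs (76.5%). Monocyte-like cells were at 38.5 CPM (34.3 to 42.9) and 38.7 CPM (35.0 to 42.7), neutrophil-like cells at 14.7 and 21.0 CPM, and mast cell-like cells had 1 and 3 UMIs. Thymocyte-like cells lay apart between libraries, at 57.7 CPM (33.6 to 92.4) in WT and 223 CPM (173 to 283) in Lyve1 KO. These values rest on 17 and 68 UMIs, too few for a ratio, in cells with a median of 2531 and 6534 UMIs. T cell-like cells of the Lyve1 KO library also had 18 Igkc, 27 Iglc1 and 53 Iglc3 UMIs, each in 2 cells, and 80 Iglc2 UMIs in 5 cells. Of the 6 members, 1 (Ighm) had enough UMIs in T cell-like cells for a Lyve1 KO over WT ratio, which was 0.33, so that 0 passed the limit, against 0.736% of all genes. Here too the clusters were in unequal shares. The Cd163l1 cluster, low in Ighm, made up 52 of 212 WT and 52 of 322 Lyve1 KO cells, and the Dapl1 cluster 80 and 171. Within the Dapl1 cluster the intervals lay apart, at 130 to 186 CPM in WT and 189 to 228 CPM in Lyve1 KO. In the other T cell-like clusters they overlapped.

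**Figure D5:**
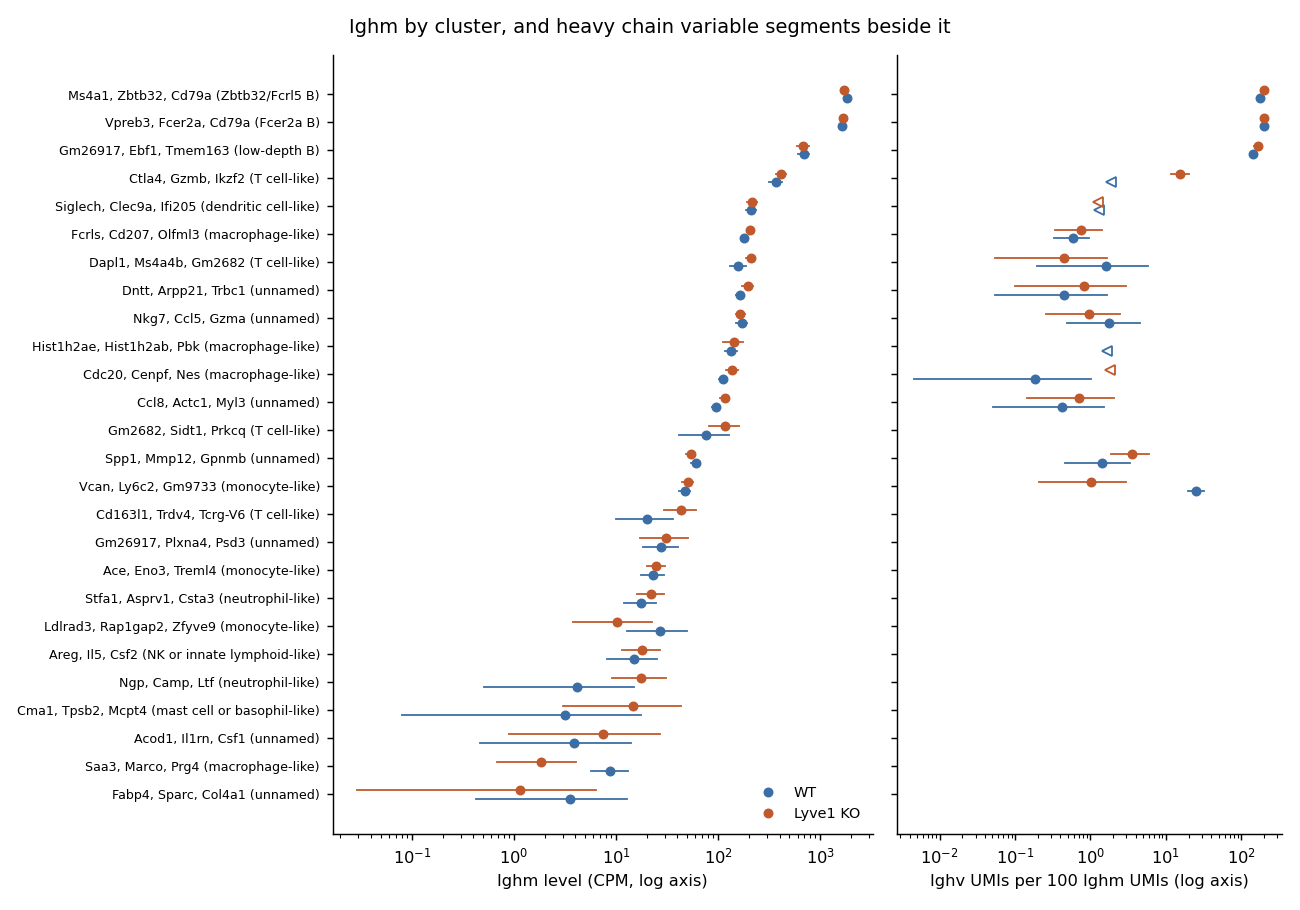
Left, Ighm level (CPM, log axis) in each cluster of at least 10 cells per library and a median of at least 3000 UMIs, and right, Ighv UMIs per 100 Ighm UMIs (log axis) where a cluster had at least 100 Ighm UMIs, in WT (blue) and Lyve1 KO (orange); bars are 95% Poisson intervals, open triangles upper bounds at 0 UMIs. The ratio is near 200 in the main B cell groups and at most 0.743 in the macrophage-like clusters with a ratio.

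The dendritic-like cells showed a further pattern, described after the data were seen. The cluster led by Siglech, Clec9a and Ifi205 held Ighm at 210 CPM (187 to 236) and 214 CPM (190 to 240) with 0 Ighv UMIs in either library. Among all dendritic-like cells, Iglc3 was found in cells with a UMI of Siglech, a marker of plasmacytoid dendritic cells. Of 20 such WT cells 9 held 103 Iglc3 UMIs, and of 13 such Lyve1 KO cells 5 held 86. The 50 and 31 dendritic-like cells without Siglech held none, which allows a share of cells with an Iglc3 UMI of up to 6% and 9.68%. Iglc2 gave 11 UMIs and 1 UMI in the Siglech cells, Iglc1 gave 0 in both, Igkc gave 0 and 5, and Iglv segments gave 0 and 2.

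Over 11 named classes in 2 libraries (22 points that share their libraries), the genes outside the immunoglobulin loci whose log2 level followed a member most closely were sought among 8349 genes. For Igkc they were Fcmr (Pearson's r = 0.994), Cd79a (0.991) and Ms4a1 (0.988), and for Ighd they were Pou2af1 (0.986), Chst3 (0.981) and Pax5 (0.980). For Ighm they were Pml (0.931), Gpatch4 (0.927) and Lbh (0.912). These names depend on the B cell points. Over the 8 classes without B cells (16 points) the genes nearest to Ighm were Il21r (0.941), Sf3b4 (0.914) and Slc14a1 (0.897). The members were chosen by their counts in the B cell groups. Cd79a, Ms4a1 and Pax5 are among the markers that named B cells. The likeness of Igkc and Ighd to B cell genes was therefore built in and is a description only. The genes nearest to Ighm followed it less closely.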

How the data were processed

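Gene-by-cell counts (UMIs) were deposited by the authors for each library, made with Cell Ranger 8.0.1 on mm10 per the labels. No other deposited values were used. Cells with at least 500 genes, 250 UMIs and at most 30% mitochondrial UMIs were kept, and the highest scrublet scores (scanpy 1.11.5) were left out at 0.4% per 1000 barcodes (98 WT and 73 Lyve1 KO), since automatic calls were 1 and 4. The genetic demultiplexing the study describes was not repeated. Libraries were integrated in Seurat 5.3.0 (R 4.3.3, 2000 variable genes without immunoglobulin genes, 30 dimensions, resolution 0.8, 31 clusters), and clusters were named from marker lists by a score set after the data were seen. Clusters that did not meet the naming rules were left unnamed, with 1665 WT (39.8%) and 1223 Lyve1 KO (36.1%) cells. Intervals are Poisson (CPM) or Clopper-Pearson (shares), at 95%, for counting error only. Log2 ratios add 10 CPM and use genes with at least 100 UMIs. Thinning drew 6000 UMIs per cell. The ratio script was tested on simulated data. Named genes were the 6 members, list genes past the limit in both libraries (up to 5 a list) and the 3 most similar genes. Members and lists were chosen with earlier results of these data known. The alternatives were stricter cell limits, doublets kept, all variable genes in the clustering, B cell groups by UMIs per cell, resolution 1.2, other scalings and limits, and cells by sex; 1 further setting for macrophage-like cells is not reported here.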

Additional observations from a re-analysis of the deposited data

Results flagged for a closer look

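The Lyve1 KO over WT log2 ratio of Iglc2 and of Iglc1 had opposite signs in the B cell groups, with each counting interval on one side of 0. For Iglc2 the ratio was 0.24 (0.15 to 0.33) in the Fcer2a group and -0.73 (-0.81 to -0.66) in the Zbtb32/Fcrl5 group, a difference of -0.98. For Iglc1 it was 0.18 (0.07 to 0.30) and -0.18 (-0.28 to -0.09), a difference of -0.37. With 1 library per genotype, neither difference was tested.
Over male cells alone, Iglc1 was at 0.01 and Iglc2 at -0.45 in the Zbtb32/Fcrl5 group, and over female cells at -0.74 and -1.42, so the opposite sign of Iglc1 was not seen in male cells.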

How the results depend on the processing

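No paired analysis was possible because each genotype is 1 library and no result comes from a test; for the same reason no replicate could be left out. Under the settings listed at the outset, 106 of the values for groups of cells stayed within counting error and 26 moved. With doublets kept, the WT Ighd share of the Fcer2a group, which then held the cell with 1859 Ighm UMIs, was 11.7%, the difference between the groups 6.43 points and the lambda share 74.5%; in WT macrophage-like cells, which did not hold that cell, Ighv per 100 Ighm UMIs was 3.45. With B cell groups set by UMIs per cell, the Ighd share was 23.9% (WT) and 24% (Lyve1 KO) against 3.51% and 3.95%, differences of 20.3 and 20.05 points, and the WT Zbtb32/Fcrl5 lambda share was 80.1%. That setting is not a regrouping of the same cells. It drew on low-depth B cells too, and it left out 198 WT and 200 Lyve1 KO B cells with UMIs of neither or both kinds of marker. Limits of 0.1 and 0.9 put 73.4% and 71.0% of Fcer2a cells and 69.4% and 84.7% of Zbtb32/Fcrl5 cells in both light chain classes. In macrophage-like cells, resolution 1.2 gave Ighm at 127 and 103 CPM and in 41.8% and 32.6% of cells at equal depth; male cells gave 171 and 121 CPM and, in WT, 49.0%; female cells gave 80.3 and 155 CPM and, in WT, 27.9% and 1.401 Ighv per 100 Ighm UMIs. Alternatives chosen after seeing the data were these. Variable segments put 5.94%, 3.85%, 4.96% and 5.26% of cells in both classes and gave lambda shares of 13.5%, 9.54%, 21.4% and 12.4% (WT and Lyve1 KO, Fcer2a then Zbtb32/Fcrl5). Female cells gave 2 members past the limit in the Zbtb32/Fcrl5 group, where 5.66% of all genes passed, and a Lyve1 KO Ighd difference of 11.3 points. Macrophage-like clusters taken apart gave Ighm at 180 and 205 CPM (led by Fcrls) and at 8.83 and 1.85 CPM (led by Saa3). The causes of these shifts were not tested. The Ighd share was higher in the Fcer2a group under all 7 alternatives run in each library.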
